A study of Mus musculus with 30 samples.

Results

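At 3 weeks of age the mouse sclera held a set of transcripts that stood above, or below, their level at both neighbouring ages. The genes described are those whose signals on all 6 week 3 arrays lay above every one of the 12 arrays of weeks 2 and 6, or below every one of them. Of 19938 genes, 1934 lay above and 687 lay below. Per1, Fkbp5 and Zbtb16 led the genes above, at 5.46 to 6.31 times the average of the flanking weeks, and 9 of 16 measured circadian clock genes were among them. The rule was applied to the deposited log2 signals, so that the difference between week 3 and its neighbours chose the genes and is given for them as a description. Calls of a linear model on the same contrast are counted beside them as part of that description and support nothing about the genes chosen.

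The arrays measured RNA from the sclera of Balb/cJ mice, which are inbred and albino, at 1, 2, 3, 6 and 8 weeks after birth, with 6 arrays per age and 30 in all. Each array carried the RNA of a single sclera from 1 mouse, no treatment was given, and all animals were of the same family according to the methods of the study. The series followed postnatal growth of the eye. Weeks 2, 3 and 6 (18 arrays) entered the rule, and weeks 1 and 8 (12 arrays) did not. Neither the labels nor the methods give the sex of the mice, the hour at which tissue was taken or the scan date of each array.

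The sclera is the outer coat of the eye. Fibroblasts in it lay down collagen lamellae with proteoglycans and elastic fibres, and the size and shape of the eye follow from the growth of this coat. Small vessels cross it, the extraocular muscles insert on it, and the choroid and retina lie against its inner face. The circadian clock is a transcriptional loop present in most cells, in which the activators Clock and Arntl (BMAL1) bind E-boxes in the promoters of the Per, Cry and Nr1d genes, whose proteins then repress the activators or their genes.

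Several features of the arrays stood beside every count below. Week 2 replicate 4 equalled the mean of the 6 week 2 arrays on every transcript cluster (largest difference 6.66667e-05), and the mean of week 6 replicates 4 and 6 equalled the week 6 mean in the same way (largest difference 5e-05). No array or combination of up to 3 arrays did so in weeks 1, 3 and 8. Subtraction of batch means within a week gives such values where 1 array, or 1 pair, makes up a batch, and the methods of the study name removal of a batch effect on scan date. Week 2 replicate 4 therefore held no measurement of its own, and it could not decide the rule, because a mean never lies outside its group. Without it the 1934 and 687 genes were unchanged, and without week 6 replicates 4 and 6 as well the counts were 1982 and 746.

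The week 3 arrays also had a wider spread of signals than those of the neighbouring weeks. The interquartile range across genes was 2.71 to 2.80 on the 6 week 3 arrays, against 2.22 to 2.56 in week 2 and 2.26 to 2.64 in week 6, and 1 of the other weeks, week 1, had a similar mean of 2.70. All 6 week 3 arrays were alike in sex-linked transcripts, with Xist, the RNA of the inactive X chromosome, between 12.57 and 12.94 and Eif2s3y, a Y-linked gene, between 0.586 and 0.813. In week 2 Xist ran from 6.96 to 12.70, and in week 6 from 1.70 to 7.52. Week 2 replicates 1, 2 and 3 had levels near those of week 3, with Xist at 12.62 to 12.70 and Eif2s3y at 0.809 to 1.11. Levels of these genes in different weeks depend on the batch adjustment, and the part of sex in the differences was not tested.

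**Figure D1:**
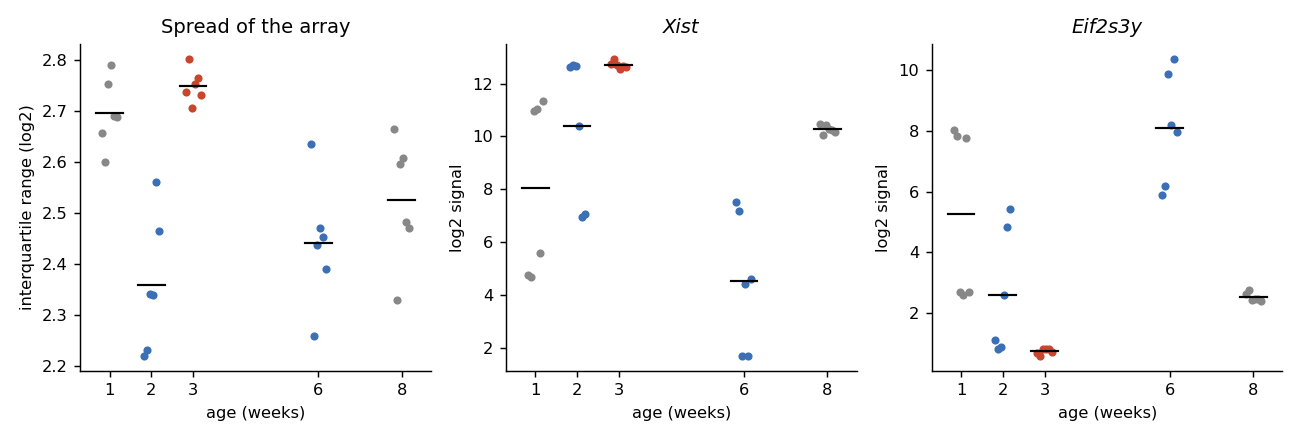
Each dot is 1 array, grouped by age in weeks, showing the interquartile range of its log2 signals and its log2 signals of Xist and Eif2s3y. The 6 week 3 arrays lie together in each panel, with an interquartile range (2.71 to 2.80) above every array of weeks 2 and 6.

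Week 1, which the rule did not use, had 3 arrays with more Xist and 3 with less. The means of these arrays differed, for the 15 leading genes above, by a median of -0.09 on the log2 scale, from -0.74 (Mir145a) to 2.26 (Kif5a, the 1 gene over 1 log2 unit). In week 2 (3 arrays with more Xist and 2 with less) the median was -0.004, from -0.63 (Timp3) to 0.32 (Zbtb16). In week 6 (2 and 2) it was -0.35, from -0.99 (Pltp) to 0.20 (Hif3a). These are descriptions of few arrays, and the part of sex was not tested.

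The promoters of 3 leading genes are shown because each held the E-box CACGTG, the element that the clock activators bind. Each line gives the 250 bases before the RefSeq start site on GRCm38.p6, 5′ to 3′ on the strand of the gene, with E-boxes in capitals. They lie at chr11:69098699-69098948 on the plus strand (Per1, the upstream of its 2 start sites), chr3:95882229-95882478 on the minus strand (Ciart) and chr17:28486150-28486399 on the minus strand (Fkbp5).
Per1: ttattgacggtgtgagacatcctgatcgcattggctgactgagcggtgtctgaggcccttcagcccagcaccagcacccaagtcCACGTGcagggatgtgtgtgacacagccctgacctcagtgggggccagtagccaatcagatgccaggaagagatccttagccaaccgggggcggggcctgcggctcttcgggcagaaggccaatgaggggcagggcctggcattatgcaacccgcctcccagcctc
Ciart: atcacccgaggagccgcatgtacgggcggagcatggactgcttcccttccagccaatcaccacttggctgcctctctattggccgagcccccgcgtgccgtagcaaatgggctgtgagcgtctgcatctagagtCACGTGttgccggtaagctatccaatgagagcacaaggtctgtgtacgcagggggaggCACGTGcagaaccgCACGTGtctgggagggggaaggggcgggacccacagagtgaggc
Fkbp5: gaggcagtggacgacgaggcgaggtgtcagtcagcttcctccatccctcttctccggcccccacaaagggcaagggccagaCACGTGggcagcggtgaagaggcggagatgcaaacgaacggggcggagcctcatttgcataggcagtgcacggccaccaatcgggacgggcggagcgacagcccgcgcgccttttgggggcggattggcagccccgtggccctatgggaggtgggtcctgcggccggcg
The Per1 element began 166 bases before the start site and that of Fkbp5 169 bases before it, whereas Ciart held 3, at 116, 58 and 44 bases. The window at the downstream start site of Per1 held none.

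Across the promoter windows of 300 bases (250 before the start and 50 after it) that were at hand for 15614 genes, 14.1% of genes above week 2 and 6 levels held CACGTG on either strand, against 4.29% of genes below and 9.50% of all genes. The Sp1 element GGGCGG was in 73.5%, 21.6% and 52.9% respectively, and the TATA element TATAAA was in 7.71%, 24.6% and 13.6%. CCAAT was in 41.1%, 39.4% and 41.7%, and GGAATG in 15.3%, 14.6% and 15.1%. TGACGT was in 14.0%, 5.46% and 10.2%, and the AP-1 element TGACTCA or TGAGTCA in 3.66%, 7.02% and 5.41%. The genes above were brighter than the genes below, as described next, and the part of brightness in these shares was not tested. Of the clock genes, 5 of the 14 with a window held CACGTG, and of the leading genes above, 3 of 10. The 5 were Per1, Ciart and Tef, which lay above, and Cry1 and Bhlhe41, which did not. Per3, Cry2, Nr1d1 and Dbp lay above, and their windows held none.

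Genes above and below differed in brightness. The median signal in all arrays was 7.73 for genes above, 4.99 for genes below and 6.54 for all genes. Genes were divided into 10 groups of equal size by their mean in weeks 1 and 8, which the rule did not use. The share above was 0.0502% in the dimmest group and 22.7% in the brightest, and the share below was 8.38% and 0.451%. After quantile normalization, which gives every array the same distribution, the share above ran from 0.401% to 13.3% and the share below from 1.25% to 3.36%. The share above thus still increased with signal after quantile normalization, less steeply, and the share below no longer decreased.

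**Figure D2:**
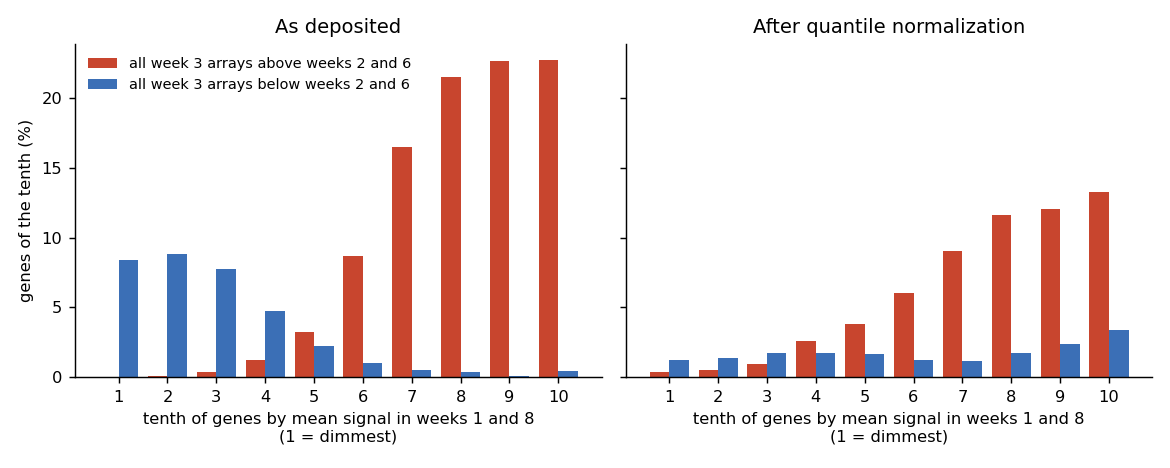
Bars give the percent of genes in 10 groups of equal size by mean signal in weeks 1 and 8 (1 is the dimmest) whose week 3 arrays all lay above (red) or all below (blue) those of weeks 2 and 6, as deposited (left) and after quantile normalization (right). The share above reaches 22.7% in the brightest group as deposited and 13.3% after quantile normalization.

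After quantile normalization 1201 genes (6.02% of all) lay above and 351 (1.76%) lay below, and 1122 (58.0%) of the 1934 and 195 (28.4%) of the 687 were among them. In the linear model 427 genes (2.14%) were called higher and 91 (0.456%) lower, where a call needed a 2-fold difference and a Benjamini-Hochberg adjusted p up to 0.05, so that 82.4% of calls were higher. This share was 71.8% after quantile normalization (250 higher, 98 lower), 63.5% after scaling each array to the same interquartile range (216 and 124) and 43.1% with the interquartile range as a covariate (193 and 255). The balance of higher and lower calls therefore depended on how the spread of the arrays was treated.

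Of all genes, 9.7% lay above and 3.45% below. The difference between the week 3 mean and the average of the week 2 and week 6 means had a median of 0.66 on the log2 scale (1.58-fold) among genes above, with a range of 0.18 to 2.66. Among genes below the median was -0.49 and the range -3.85 to -0.21. The gap between the nearest week 3 array and the nearest flanking array was small for most: it was at least 0.1 for 1345 of the genes above and 220 of those below, and at least 0.5 for 139 and 1. A gap of at least 1 log2 unit was found for 4 genes, Per1, Fkbp5, Zbtb16 and Lfng, all above. The genes nearest to the rule's edge were Ctdspl and Gnb1 inside (gaps 0.00021 and 0.0004) and Wrap53 outside (-0.00025), and below the edge Tex35 and Cfap65 inside (0.00011 and 0.00024) with Habp2 and Zranb3 outside (-0.00015 and -0.00028). Col18a1 had its lowest week 3 array exactly at the highest flanking array and lay outside.

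The gene with the largest difference was Per1, which encodes a repressor of the clock loop. Its signal was 6.65 to 7.71 in week 2 (median 7.18), 9.30 to 10.03 in week 3 (median 9.68) and 6.56 to 7.20 in week 6 (median 6.84). Week 3 exceeded the flanking average by 2.66 ± 0.13 (SE), a fold of 6.31. The week 1 and week 8 arrays (7.11 to 7.61 and 6.58 to 7.34) lay in the range of the flanking weeks, and no array of any other age came near the lowest of week 3.

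Fkbp5, a co-chaperone of steroid receptors, had the widest gap, with 2.03 log2 units between the lowest week 3 array and the highest flanking one. Its signal was at most 7.25 in week 2 (median 7.06), 9.28 to 9.69 in week 3 (median 9.42) and 6.69 to 7.05 in week 6 (median 6.80), a difference of 2.55 ± 0.10 (SE). Zbtb16, a zinc finger transcription factor, was at 7.14 to 7.60, 9.33 to 10.48 and 7.07 to 7.56 in the same order (medians 7.36, 9.71 and 7.30), a difference of 2.45 ± 0.13 (SE). In both genes the levels of weeks 1, 2, 6 and 8 were close to each other and week 3 stood alone.

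Angptl7, a secreted protein of the angiopoietin-like family, and Timp3, a matrix-bound inhibitor of metalloproteinases, came next. Angptl7 was at 7.17 to 8.90 in week 2 (median 7.86), 9.57 to 11.20 in week 3 (median 10.56) and 7.91 to 9.07 in week 6 (median 8.59), a difference of 2.34 ± 0.26 (SE). Timp3 was at 8.19 to 9.98 (median 9.41), 11.40 to 12.21 (11.89) and 9.31 to 10.50 (9.75), a difference of 2.27 ± 0.27. Both varied more among the arrays of a week than Per1 or Fkbp5, and neither overlapped.

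The other leading genes differed by 1.81 to 2.05. They were Acer2, a ceramidase (2.05 ± 0.19, SE), Pltp, a phospholipid transfer protein (2.01 ± 0.20), Ramp2, a receptor subunit for adrenomedullin in vessels (2.01 ± 0.26), Eng (endoglin), a TGF-beta co-receptor of endothelium (1.99 ± 0.27), Kif5a, a neuronal kinesin (1.95 ± 0.41), Ciart, a repressor of the clock (1.95 ± 0.15), and the microRNA gene Mir145a (1.92 ± 0.24). Hif3a, a hypoxia-inducible factor subunit (1.83 ± 0.11), Ccn2 (CTGF), a matricellular protein (1.83 ± 0.26), and Slc2a1 (GLUT1), a glucose transporter (1.81 ± 0.17), completed the 15. Kif5a was the least even, from 6.53 to 9.62 in week 3 against 5.80 to 6.33 and 6.01 to 6.19 in weeks 2 and 6. Ccn2 passed by a gap of 0.007, and it and Eng were the only genes of the 15 that lost their place after quantile normalization. Of the 15, 12 also lay above every array of weeks 1 and 8, and the exceptions were Kif5a, Ccn2 and Slc2a1.

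**Figure D3:**
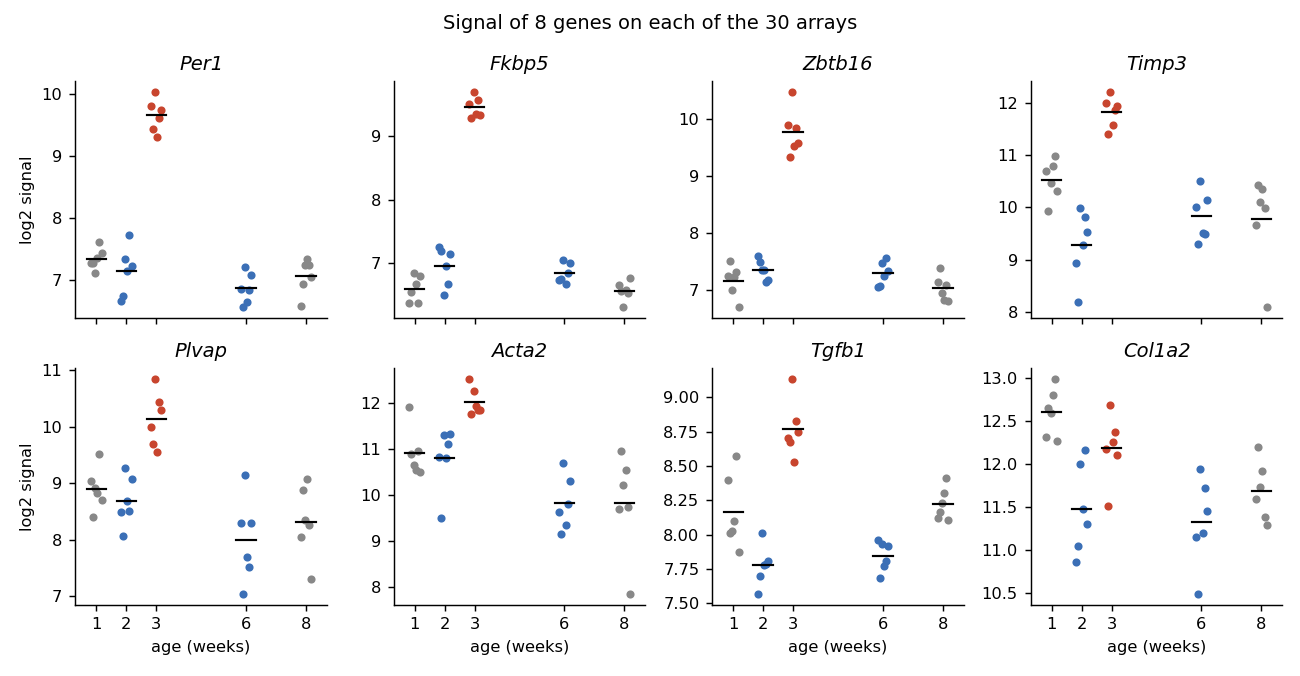
Dots are the log2 signals of single arrays by age in weeks and bars are week means, for Per1, Fkbp5, Zbtb16, Timp3, Plvap, Acta2, Tgfb1 and Col1a2, with week 3 in red, weeks 2 and 6 in blue and weeks 1 and 8 in grey. Col1a2 is the gene shown whose week 3 arrays (11.51 to 12.68) overlap those of week 2 (10.86 to 12.16), and the others do not overlap.

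Of the 16 measured clock genes, 9 lay above (56.2%, against 9.7% of all genes) and none below, and 7 were called higher in the model (2.14% of all genes). The median signal of the 16 was 7.70, in the range of the group of genes from 7.36 to 7.81, of which 21.5% lay above. All 9 also lay above every array of weeks 1 and 8 (38.2% of the 1934 genes above and 3.71% of all genes did), and all 9 kept their place after quantile normalization. The 16 were chosen with earlier results of these data known, so that the count is a description. The mean over the 16 genes was 7.38 to 7.66 on the week 2 arrays, 8.45 to 8.57 in week 3 and 7.70 to 7.99 in week 6, with 7.57 to 7.88 in week 1 and 7.57 to 7.78 in week 8. The 6 week 3 arrays thus lay close together and above all 24 others.

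Among the repressors, Per2 was at 6.58 to 6.92 in week 2 (median 6.77), 7.65 to 8.25 in week 3 (8.11) and 6.43 to 7.02 in week 6 (6.67), a difference of 1.29 ± 0.10 (SE). Cry2 was at 7.07 to 7.47 (7.29), 8.12 to 8.30 (8.19) and 6.97 to 7.34 (7.12), a difference of 0.98 ± 0.07. Per3 differed by 0.77 ± 0.09. Cry1 did not follow, with 6.88 to 7.26, 7.03 to 7.30 and 7.04 to 7.23 in weeks 2, 3 and 6 and a difference of 0.08 ± 0.06 that was -0.01 after quantile normalization.

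Nr1d1 (REV-ERB alpha), which represses Arntl, was at 8.47 to 8.80 in week 2 (median 8.67), 10.39 to 10.83 in week 3 (10.51) and 9.49 to 10.05 in week 6 (9.67), a difference of 1.38 ± 0.12 (SE). It was the 1 clock gene called higher in week 8 versus week 1 (1.35 ± 0.14, limma adjusted p = 2.1e-08), and after scaling to the same interquartile range it overlapped a flanking week. Its relative Nr1d2 lay above all week 2 arrays (8.01 to 8.44 against 9.15 to 9.39) and overlapped week 6 (8.87 to 9.19) by a gap of -0.04.

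The PAR-domain activators of clock output also lay above. Dbp was at 7.79 to 8.17 in week 2 (median 7.95), 9.48 to 9.85 in week 3 (9.65) and 8.30 to 9.08 in week 6 (8.67), a difference of 1.33 ± 0.12 (SE). Tef differed by 1.05 ± 0.08. The third of these factors, Hlf, overlapped in all 3 weeks and differed by 0.24 ± 0.13, and by -0.10 after scaling to the same interquartile range.

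Bhlhe40 (DEC1), a repressor that competes for E-boxes, differed by 0.96 ± 0.12 (SE). Its relative Bhlhe41 took another course, at 5.14 to 6.29 in week 2, 7.88 to 8.32 in week 3 and 7.83 to 8.99 in week 6, so that it differed from week 2 by 2.34 ± 0.22 and from week 6 by -0.26 ± 0.22. The activators had differences below 0. Arntl was at 6.92 to 7.50 (median 7.26), 6.27 to 7.08 (6.71) and 6.86 to 7.74 (7.50), a difference of -0.66 ± 0.15, and Clock differed by -0.54 ± 0.12, with overlap between the weeks in both. After quantile normalization all week 3 arrays of Clock lay below the flanking weeks.

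**Figure D4:**
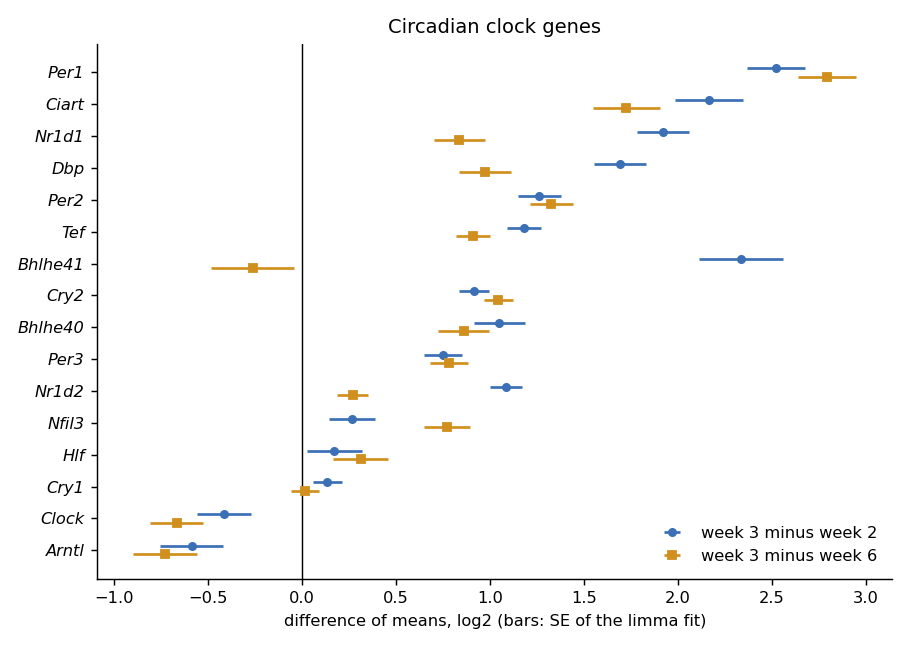
Each of the 16 clock genes has its week 3 minus week 2 difference (blue circle) and its week 3 minus week 6 difference (orange square) on the log2 scale, with the SE of the limma fit as bars. Both comparisons use the same week 3 arrays, Per1 lies farthest to the right, and Clock and Arntl lie left of 0 in both.

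Genes of the vessel wall stood higher in week 3, though with more overlap between arrays than the clock genes. Of 25 measured endothelial genes, 6 lay above (9.7% of all genes did) and none lay below. Of the 25, 15 were called higher (2.14% of all genes were). Their median signal was 8.245, in the range of the group of genes from 7.81 to 8.40, of which 22.6% lay above. In week 3 versus 2, 8 of the 25 were called higher (2.89% of all genes), and in week 3 versus 6, 19 (3.03%). The week 3 arrays were shared by both comparisons. All 25 had a difference above 0 (9016 of all 19938 genes did), with a median of 1.05. Of the 25, 20 had their highest week mean in week 3 (20.4% of all genes did). The mean over the 25 genes nonetheless overlapped, at 7.34 to 8.40 in week 2, 8.32 to 9.34 in week 3 and 6.92 to 8.14 in week 6. In bulk tissue more cells of a type and more RNA per cell cannot be told apart.

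The 6 were Eng, Plvap, Gja4, Tie1, Nos3 and Flt4. Plvap, a component of the diaphragms of fenestrated endothelium, was at 8.06 to 9.27 in week 2 (median 8.60), 9.55 to 10.85 in week 3 (10.14) and 7.04 to 9.14 in week 6 (8.00), a difference of 1.79 ± 0.26 (SE). Gja4, a connexin of arterial endothelium, was at 7.28 to 7.86 (7.74), 8.23 to 9.58 (8.81) and 6.13 to 7.06 (6.30), a difference of 1.75 ± 0.18. The week 6 median was below the week 2 median in both genes, and every week 3 array was above both groups. Tie1, an orphan receptor kinase of endothelium, differed by 1.63 ± 0.23, Nos3, the endothelial nitric oxide synthase, by 1.28 ± 0.16, and Flt4 (VEGFR3), of lymphatic endothelium, by 1.05 ± 0.15. After quantile normalization Gja4 and Flt4 remained.

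Pecam1, an adhesion protein of all endothelium, overlapped between week 3 and both flanking weeks. It was at 7.77 to 9.32 in week 2, 8.53 to 9.69 in week 3 and 7.51 to 8.62 in week 6, a difference of 0.65 ± 0.25 (SE), and Cdh5 (VE-cadherin) differed by 0.51 ± 0.27. The weeks overlapped for Cdh5 too. Vwf (von Willebrand factor) missed the rule by a gap below 0.01 and differed by 1.67 ± 0.28.

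Of 17 smooth muscle and pericyte genes, 5 lay above (29.4%, against 9.7% of all genes) and 5 were called higher (29.4%, against 2.14%). All but 2 had a difference above 0. Their median signal was 7.98, in the range of the group of genes from 7.81 to 8.40, of which 22.6% lay above. Acta2, smooth muscle actin, was at 9.50 to 11.32 in week 2 (median 10.97), 11.75 to 12.53 in week 3 (11.89) and 9.16 to 10.70 in week 6 (9.72), a difference of 1.71 ± 0.32 (SE). Tagln, an actin-binding protein of smooth muscle, was at 7.66 to 8.68 (8.23), 9.24 to 10.03 (9.63) and 7.03 to 8.74 (7.73), a difference of 1.65 ± 0.28. Notch3, a receptor of mural cells, had tighter groups at 9.09 to 9.55, 9.86 to 10.35 and 8.33 to 8.62 and differed by 1.11 ± 0.08. Pdgfrb differed by 1.54 ± 0.29 and Cspg4 (NG2) by 0.85 ± 0.13, and both lost their place after quantile normalization. Myh11, smooth muscle myosin, overlapped by a gap of -0.03 and differed by 1.17 ± 0.32. The mean over the 17 genes was 7.33 to 8.26 in week 2, 8.28 to 8.92 in week 3 and 7.34 to 8.35 in week 6, so that weeks 3 and 6 just overlapped. Epas1 (HIF-2 alpha), a hypoxia-inducible factor abundant in endothelium, was at 10.34 to 10.81 in week 2 (median 10.55), 11.21 to 11.72 in week 3 (11.31) and 9.61 to 9.99 in week 6 (9.71), a difference of 1.21 ± 0.08.

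TGF-beta and BMP signalling was represented by ligands, receptors, an extracellular inhibitor and intracellular mediators. Of 27 measured genes, 9 lay above (33.3%, against 9.7% of all genes) and 3 were called higher (11.1%, against 2.14%). The median signal of the 27 was 7.55, in the range of the group of genes from 7.36 to 7.81, of which 21.5% lay above. After quantile normalization 4 of the 9 remained. The mean over the 27 genes was 7.01 to 7.44 in week 2, 7.55 to 8.00 in week 3 and 7.15 to 7.61 in week 6.

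Tgfb1, the TGF-beta ligand with the clearest separation, was at 7.57 to 8.02 in week 2 (median 7.78), 8.53 to 9.13 in week 3 (8.73) and 7.69 to 7.96 in week 6 (7.86), a difference of 0.96 ± 0.09 (SE) with a gap of 0.51. Tgfb2 overlapped week 6, with medians of 6.72, 7.72 and 7.31, and differed by 0.77 ± 0.15. The ligands Bmp6 (0.93 ± 0.15) and Bmp7 (0.72 ± 0.11) and the BMP inhibitor Nog (noggin, 0.90 ± 0.10) also lay above, and with Tgfb1 they were the 4 that remained after quantile normalization. Among the receptors, Acvrl1 (ALK1), which pairs with endoglin in endothelium, differed by 1.30 ± 0.15 and Tgfbr3 (betaglycan) by 0.67 ± 0.12. The mediator Smad3 differed by 0.47 ± 0.08 and the inhibitory Smad7 by 0.94 ± 0.15.

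The collagens of the scleral matrix did not share this pattern. None of 20 fibrillar and fibril-associated collagens lay above or below. None was called against the flanking average by limma or by the fit without moderation, while 2 were called higher in week 3 versus 2 and 1 in week 3 versus 6. Against the flanking average 10 had an unadjusted limma p under 0.05. Of all 19938 genes, 5241 were higher and 5927 lower at an adjusted p up to 0.05 with no fold threshold. An unadjusted p never exceeds the adjusted one, so at least as many genes pass unadjusted. Of the 20 collagen differences 19 were above 0, with a median of 0.35. Col1a2, a chain of type I collagen, was at 10.86 to 12.16 in week 2 (median 11.39), 11.51 to 12.68 in week 3 (12.21) and 10.49 to 11.94 in week 6 (11.33), a difference of 0.78 ± 0.20 (SE) that shrank to 0.09 after scaling to the same interquartile range. Its highest levels were in week 1, at 12.26 to 12.98. Col3a1 differed by 0.84 ± 0.22 and also had its highest median in week 1.

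Elastic fibre genes lay between these. Of 16, 1 lay above (6.25%, against 9.7% of all genes) and 7 were called higher (43.8%, against 2.14%). A difference above 0 was found for 15, with a median of 0.74. Eln, the elastin precursor, was at 8.81 to 10.62 in week 2 (median 10.15), 10.59 to 11.65 in week 3 (11.02) and 7.34 to 8.47 in week 6 (7.95), and missed the rule by a gap of -0.03. It differed from week 2 by 1.02 ± 0.24 (SE) and from week 6 by 3.11 ± 0.24. Ltbp4, which tethers latent TGF-beta and takes part in elastic fibre assembly, lay above with a difference of 1.38 ± 0.15, and lost its place after quantile normalization.

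Of 23 matricellular genes 2 lay above (8.70%, near the 9.7% of all genes), Ccn2 and Vtn (vitronectin, 1.80 ± 0.25, SE). Of 21 matrix proteoglycans 1 lay above (4.76%), Hspg2 (perlecan), and it lost its place after quantile normalization. Of 26 IGF, FGF and EGF family genes 4 lay above (15.4%), Igfbp4 (1.78 ± 0.24), Pdgfrb, Igfbp3 and Igf1r, the IGF receptor, of which Igf1r alone remained after quantile normalization. Igf1r was even within weeks, at 8.20 to 8.67, 9.22 to 9.46 and 8.24 to 8.66, and differed by 0.86 ± 0.08. Mgp, the matrix Gla protein that limits calcification, differed by 1.68 ± 0.23.

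The study singled out a set of growth genes from these same arrays, so their course is not independent evidence. Of the 22 measured here, Ccn2 and Tgfb1 lay above (9.09%, near the 9.7% of all genes) and none lay below. Ccn2, Krt17 (1.70 ± 0.27, SE), Pgf (1.55 ± 0.22) and Flt1 (1.15 ± 0.23) were called higher, and Ttn (-2.70 ± 0.32) was called lower. Krt17, an epithelial keratin, was at 7.38 to 8.79, 8.30 to 10.09 and 6.82 to 7.65 in weeks 2, 3 and 6 and at 8.12 to 9.70 in week 8, so that week 3 was no single peak. Pgf, the placental growth factor that binds Flt1, missed the rule by a gap of -0.05.

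The remaining growth genes overlapped a flanking week. Igf2, the fetal insulin-like growth factor, was at 8.05 to 9.96, 8.63 to 9.47 and 7.48 to 8.39, on a course from 9.57 to 11.09 in week 1 to 7.37 to 8.49 in week 8 (week 8 versus week 1 -2.33 ± 0.26, SE, limma adjusted p = 5.2e-08). The week 3 median (9.10) was above that of week 2 (8.69) and within the range of the week 2 arrays. The other differences ran from -0.88 (Cycs, cytochrome c) to 0.84 (Col3a1), with Egfr at -0.14 ± 0.12 and Col6a3 at 0.17 ± 0.21.

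Genes of the secretory pathway differed by little. Of 27 genes of endoplasmic reticulum folding and secretion 9 lay above (33.3%, against 9.7% of all genes), 5 of them also after quantile normalization. One call was made, higher (3.70%, against 2.14%). Their median signal was 8.79, in the range of the brightest group of genes, of which 22.7% lay above, and after scaling to the same interquartile range 2 of the 27 lay above. Herpud1, a component of the degradation machinery of the endoplasmic reticulum, was at 8.03 to 8.67 in week 2 (median 8.33), 9.39 to 9.77 in week 3 (9.66) and 8.33 to 8.87 in week 6 (8.75), a difference of 1.09 ± 0.11 (SE). Calr (calreticulin) differed by 0.70 ± 0.08 and Sec61a1, a subunit of the protein channel, by 0.63 ± 0.10.

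Glycolysis genes differed in both directions. Of 20, 4 lay above, as deposited (9.7% of all genes did) and after quantile normalization (6.02%), and 7 had a difference below 0. The median signal of the 20 was 8.73, in the range of the brightest group of genes. Of that group 22.7% lay above as deposited and 13.3% after quantile normalization. The muscle isoforms Pgam2, Eno3 and Pfkm, named after their values were seen, had the lowest differences, at -1.36 ± 0.31 (SE, called lower), -0.997 ± 0.294 and -0.71 ± 0.22, with week 6 arrays above all of week 3 (Pgam2 at 5.28 to 7.24 in week 3 and 8.01 to 9.66 in week 6). Slc2a1 was at 8.74 to 9.39 in week 2 (median 9.06), 10.86 to 11.53 in week 3 (11.24) and 9.44 to 10.15 in week 6 (9.87), with overlapping levels in week 1 (9.93 to 11.46). Pfkl, the liver-type phosphofructokinase, differed by 1.05 ± 0.12 (SE) and Eno2, the neuronal enolase, by 1.18 ± 0.23. The fourth was Pgam1. Splicing genes also had a median signal (8.60) in the range of the brightest group. Of 46, 11 lay above (23.9%, against 9.7% of all genes) as deposited and 3 after quantile normalization. None was called in limma with or without moderation, and 14 had a higher week 3 level at an unadjusted p under 0.05. Of all 19938 genes, 5241 were higher at an adjusted limma p up to 0.05 with no fold threshold.

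Fibroblast genes, which mark the main cell type of the sclera, were present in all 3 weeks. The mean over 26 of them was 7.33 to 8.13 in week 2, 7.99 to 8.65 in week 3 and 7.53 to 8.57 in week 6, and 2 of the 26 lay above (7.69%, against 9.7% of all genes). Markers of neighbouring tissue were present as well. The mean over 31 photoreceptor genes was 5.33 to 6.63, 6.53 to 7.78 and 6.43 to 7.09, and it reached 9.58 in week 1. Of the 31, 3 lay above (9.68%, near the 9.7% of all genes) and 8 were called higher (25.8%, against 2.14%). Of these 3, Guca1a and Pde6g lost their place after quantile normalization and Gnb1 kept it. Genes of the retinal pigment epithelium and of pigment cells were lower in week 2 than in weeks 1, 3 and 6. The mean over 12 pigment epithelium genes was 5.48 to 7.01, 7.38 to 8.08 and 7.57 to 8.65, and that over 22 pigment cell genes was 6.16 to 7.48, 7.92 to 8.54 and 8.07 to 8.84. In week 1 these means were 7.94 to 9.55 and 8.19 to 9.42. In week 3 versus 2, 10 and 15 of these genes were called higher (2.89% of all genes were). In week 3 versus 6 limma called none higher with or without moderation (2 and 4 were higher at an unadjusted p under 0.05), and none lay above. The mean over 18 synaptic vesicle genes was 5.55 to 6.33, 6.28 to 7.24 and 6.18 to 6.55, with 4 above (22.2%, against 9.7% of all genes). The part of retina and pigment epithelium carried with the sclera in these differences was not tested.

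Striated muscle genes were lower in weeks 2 and 3 than in weeks 1, 6 and 8. The mean over 41 genes was 6.17 to 7.30 in week 2, 5.77 to 7.61 in week 3 and 8.07 to 9.29 in week 6. It was 8.03 to 10.17 in week 1 and 8.15 to 9.39 in week 8. None of the 41 lay above or below, and 19 were called lower against the flanking average (46.3%, against 0.456% of all genes). In week 3 versus 6, 30 were called lower (1.94% of all genes) and none in week 3 versus 2 (0.211%). In week 3 versus 2, 4 were lower at an unadjusted limma p under 0.05 and the fit without moderation also called none. Ttn (titin), the giant sarcomere protein, was at 6.65 to 7.57, 5.25 to 7.47 and 10.38 to 11.71. Beside these, Trdn (triadin), a calcium release protein of muscle, passed the rule by a gap of 0.01, at 6.10 to 7.13, 4.10 to 6.09 and 8.49 to 10.02, and 2 of its 19 transcript clusters did so.

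The genes below included many sensory receptors of low signal. Of the 687, 138 were olfactory receptors (of 1027 measured, 13.4%, against 3.45% of all genes) and 15 were vomeronasal receptors (of 169, 8.88%), together 22.3%. These receptors belong to sensory neurons of the nose and are near the lower end of signal here. Their median signals were 4.14 and 3.51, in the range of the dimmest group of genes, of which 8.38% lay below. The part of low signal in these counts was not tested. After quantile normalization 35 of the olfactory receptors remained. The lowest of the leading ones, Olfr295, was at 2.99 to 4.09, 2.38 to 2.79 and 3.63 to 4.09 in weeks 2, 3 and 6.

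The 15 leading genes below began with the Y-linked genes Uty (-3.85 ± 0.69, SE) and Srsy (-3.18 ± 0.56), which were low on all week 3 arrays and mixed in weeks 2 and 6 like Eif2s3y above. Trdn was described above. Small nucleolar RNA genes, which guide modification of other RNAs, were next. Snord22 was at 6.82 to 8.54 in week 2 (median 7.34), 5.49 to 6.21 in week 3 (5.68) and 6.70 to 7.63 in week 6 (6.84), a difference of -1.50 ± 0.20. Snora23 was at 6.17 to 7.95 (6.53), 5.49 to 5.97 (5.66) and 6.90 to 7.62 (7.11), a difference of -1.23 ± 0.17. Of 52 small nucleolar RNA genes 6 lay below and 1 above (of all genes, 3.45% lay below and 9.7% above).

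Itgb6, the epithelial integrin subunit that forms the TGF-beta activating integrin, was at 6.87 to 7.54 in week 2 (median 7.03), 5.61 to 6.66 in week 3 (6.14) and 7.02 to 7.60 in week 6 (7.28), a difference of -1.05 ± 0.21 (SE). Week 1 (5.94 to 8.12) overlapped week 3. Crygs, a lens crystallin, was at 5.35 to 9.59, 4.74 to 5.15 and 5.39 to 5.95, and reached 12.36 in week 1. The other leading genes below were Mir680-1, Mir680-2, Olfr295, Olfr1286, A530040E14Rik, Gm7982, 4930444G20Rik and G530011O06Rik, each at a difference between -1.14 and -1.03. Of the 15, 12 remained after quantile normalization, and Uty, Trdn and 4930444G20Rik did not.

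The arrays of weeks 1 and 8 placed week 3 among all ages. Of the genes above, 739 (38.2%) also lay above every array of weeks 1 and 8. Their week 3 arrays lay above all week 1 arrays in 952 genes (49.2%, against 16.8% of all genes) and above all week 8 arrays in 1378 (71.3%, against 15.1%). Of the genes below, 120 (17.5%) lay below all 24 other arrays, which are the same genes as the 0.602% of all genes that did so. Their week 3 arrays lay below all week 1 arrays in 130 (18.9%, against 9.54% of all genes) and below all week 8 arrays in 415 (60.4%, against 7.61%). These shares rest on the week 3 values that chose the genes and are a description.

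Week 8 versus week 1 gave a test that the rule did not enter. Among the genes above, 13 were higher and 65 lower in week 8 by limma (of all genes 3.21% were higher and 4.76% lower), with a median difference of -0.14. Among the genes below none was called higher in limma with or without moderation and 6 were lower, with a median of 0.29. Of the 687, 454 were higher at an unadjusted limma p under 0.05. The matching share of all genes was not counted, so that this count cannot be read as particular to the genes below. The median was 0.04 over all genes, and it was also above 0 over the dim olfactory (0.24) and vomeronasal receptors (0.16). Neither set was called more often than all genes. Of the 15 leading genes above, Angptl7 (-1.24 ± 0.30, SE, limma adjusted p = 0.0013), Kif5a (-1.38 ± 0.48, adjusted p = 0.017) and Slc2a1 (-1.11 ± 0.20, adjusted p = 5.1e-05) were called lower in week 8 by limma. Per1 (-0.28 ± 0.16, limma adjusted p = 0.13), Fkbp5 (-0.03 ± 0.12, adjusted p = 0.82) and Zbtb16 (-0.13 ± 0.15, adjusted p = 0.46) were not called.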

How the data were processed

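RNA of 30 sclerae was hybridised to Mouse Gene 1.0 ST arrays, 1 per array. The deposited values are log2 signals of 35556 transcript clusters. According to the methods, the authors summarised them by RMA in Partek and removed a batch effect on scan date, whereas the submitters' processing notes name Partek 6.5 and GCRMA, so that the exact method is unsettled. Values were used as deposited.

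The members and gene lists were chosen with earlier results of these data known. A gene was represented by its brightest transcript cluster among those with 1 symbol (19938 genes). Gene symbols came from the platform annotation. Leading genes are the 15 on each side with the largest difference, and up to 4 on each side were named from each of 51 lists, with all growth genes of the study and the genes nearest the edge of the rule. A few others (Lfng, Nr1d2, Pgam2, Eno3, Pfkm, Pecam1, Cdh5, Vwf, Myh11, Eln, Pgf, Epas1, the clock genes outside the rule and some TGF-beta genes) were named after their values were seen.

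A linear model with 1 mean per week over 30 arrays was fitted in limma 3.58.1 (R 4.3.3), with Benjamini-Hochberg adjustment over 35556 transcript clusters. Calls needed a 2-fold difference and an adjusted p up to 0.05. All ± values are SEs of this model, with n = 6 arrays per week. Week 2 held 5 independent arrays, and week 6 replicates 4 and 6 were tied to each other through the week 6 mean. The number of arrays limits the precision, and week 3 versus 2 and week 3 versus 6 share the week 3 arrays. Mice of 1 family were not stated to be independent litters, so that p-values measure the spread between these samples. Alternatives were other normalizations, array weights, the 18 arrays alone, a replicate block, an interquartile range covariate, no moderation, other ways to count genes and, chosen after seeing the data, left-out arrays. The model was tested on simulated data. Promoters came from RefSeq (GRCm38.p6). Python 3.11.15, pandas 2.3.3, numpy 2.4.6 and matplotlib 3.10.9 were used.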

Additional observations from a re-analysis of the deposited data

Results flagged for a closer look

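Among 87 genes in weeks 2, 3 and 6 (261 groups of arrays), 11 groups held 1 array that stood apart from the rest of its week by Dixon's criterion at 95%, which chance meets in about 1 in 20 groups. Week 2 was tested over its 5 independent arrays.

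In week 2, replicate 3 was highest for Ciart (6.10, next 5.52) and for Acvrl1 (8.63, next 8.12). Replicate 5 was highest for Snora23 (7.95, next 6.60), replicate 6 for Vtn (7.92, next 7.32), and replicate 2 was lowest for Acta2 (9.50, next 10.83). In week 3, replicate 3 was highest for Notch3 (10.35, next 10.03) and for Epas1 (11.72, next 11.36), replicate 1 for Myh11 (11.20, next 10.36) and replicate 2 for Snord22 (6.21, next 5.74). In week 6, replicate 1 was highest for Bhlhe40 (8.05, next 7.71) and replicate 2 was lowest for Herpud1 (8.33, next 8.70).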

How the results depend on the processing

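The number of genes above was 1201 after quantile normalization, 1269 after scaling to the same interquartile range, 739 against weeks 1, 2, 6 and 8 together and 139 with a gap of at least 0.5. The number below was 351, 358, 120 and 1 under the same settings, 1449 over all transcript clusters and 85 over bright genes. Leaving out 1 array at a time can only keep or add genes, and gave 1934 to 2265 above (the highest without week 3 replicate 2) and 687 to 1116 below (the highest without week 2 replicate 5). Calls higher were 250 after quantile normalization, 216 after scaling, 193 with the interquartile range as covariate, 818 over all transcript clusters and 5241 with no fold threshold. Calls lower were 255 with that covariate, 488 over all transcript clusters and 5927 with no fold threshold.

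After quantile normalization and after scaling, genes above numbered 4 and 4 for TGF-beta, 2 and 3 for endothelium, 3 and 1 for smooth muscle, 5 and 2 for the endoplasmic reticulum, and 3 and 2 for splicing, and olfactory receptors below numbered 35 and 18. Cry1 turned to -0.00998 after quantile normalization and Hlf to -0.10 after scaling. The cause of these changes was not tested. Of 522 values of named genes under the alternatives, 485 kept their direction and their side of the threshold.

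With the replicate number as a block the model gave the same 427 calls higher and 91 lower. Arrays with the same number deviated together (correlation over 0.1) in 8 of 16 pairs and not in the other 8, with correlations from -0.241 to 0.454. Replicate 3 was its own best match in all 3 comparisons, and 6 of the 16 were in all. The labels tie the numbers to nothing shared, so the samples were not treated as paired.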

Other observations

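Several of the leading genes (Fkbp5, Zbtb16, Per1, Hif3a) are widely described as responsive to glucocorticoids, and a list of 40 such genes was therefore written after the leading genes had been seen. It includes these leading genes and is no independent evidence. Of 39 measured, 21 lay above weeks 2 and 6 (53.8%, against 9.7% of all genes) and none below. The median signal of the 39 was 7.29, in the range of the group of genes from 6.96 to 7.36, of which 16.5% lay above. Of the 39, 17 were called higher (43.6%, against 2.14% of all genes). After quantile normalization, where 6.02% of all genes lay above, 19 of the 21 remained. All 21 also lay above every array of weeks 1 and 8, and 3.71% of all genes lay above all 24 other arrays.

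Tsc22d3 (GILZ), a leucine zipper protein, was at 6.64 to 7.39 in week 2, 8.20 to 9.12 in week 3 and 6.29 to 6.84 in week 6, a difference of 1.74 ± 0.12 (SE). Klf9, a zinc finger transcription factor, was at 7.27 to 8.13, 9.08 to 9.79 and 7.39 to 8.32 (1.61 ± 0.14), and Ddit4, an inhibitor of mTOR signalling, at 6.89 to 7.51, 8.18 to 9.02 and 6.41 to 6.99 (1.70 ± 0.13). Dusp1 (1.27 ± 0.21), Mt2 (1.02 ± 0.18) and Lcn2 (1.09 ± 0.22) overlapped a flanking week. The receptor gene Nr3c1 differed by -0.12 ± 0.09. The mean over the 39 genes was 7.12 to 7.34 in week 2, 8.02 to 8.37 in week 3 and 7.28 to 7.50 in week 6, against 7.06 to 7.30 in week 1 and 7.26 to 7.41 in week 8. Only Per1 is also in the clock list.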
